A study of Homo sapiens with 2 samples.

Results

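The SLC25 carriers are a family of metabolite transporters, most of them in the mitochondrial inner membrane, and their RNA was compared between LNCaP cells with reduced KDM4A and LNCaP cells given an empty vector. Members were chosen by name: every probe set that the platform annotation gives to a single gene whose symbol is SLC25A followed by a number. This gave 88 probe sets for 42 genes, of 44672 probe sets and 17689 genes in the deposited table of Affymetrix Human Genome U133 Plus 2.0 arrays. Antisense RNA genes named after carriers were kept apart as 4 further genes, and SLC25A6, SLC25A31, SLC25A43, SLC25A52 and SLC25A53 are not analysed here. LNCaP is an androgen-responsive human prostate carcinoma line. The shKDM4A cells had been infected with lentivirus carrying a hairpin RNA against KDM4A, a histone lysine demethylase. The control cells had been infected with lentivirus of the same vector, pLKO.1, with no insert. Both cultures grew in RPMI medium with serum and were harvested 3 days after infection. There was 1 array in each group, from 1 hairpin, and the control vector carried no other hairpin.

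Carriers are encoded in the nucleus, made in the cytosol and threaded into the inner membrane, where each exchanges or imports particular metabolites. ADP/ATP carriers deliver ATP to the cytosol, and others move phosphate, amino acids, citrate and related acids, acylcarnitine, nucleotides, iron and cofactors. In prostate epithelium mitochondrial citrate handling has a special place, because the normal gland secretes citrate.

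Every value below is a log2 difference, shKDM4A minus control, unless it is given as a fold or as the value on 1 array. The deposited values had been centred on the mean of the 2 arrays, so a probe set's values on the arrays are mirror images around 0 and carry no signal level. Whether a carrier was well expressed, and whether the luminal prostate markers stood high in these cells, could therefore not be checked. Of 9 such markers 7 were usable, and their differences ran from -0.76 (TMPRSS2) to 0.48 (FOLH1). A gene's value is the mean over its probe sets, and ± SD is the spread between those probe sets. It says nothing of the spread between cultures, for which there were no replicates, so no test was possible and no p-value is given. Genes were called by size, at 2-fold or at 1.5-fold. In bulk RNA, fewer cells carrying a transcript and less of it per cell cannot be told apart.

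The targeted gene was lower in the knockdown, with KDM4A at -1.18 ± 0.40 (SD, 2 probe sets), 2.26-fold. Its probe sets read -0.45 and -0.73 on the shKDM4A array, against 0.45 and 0.73 on the control array. The median over all 17689 genes was 0.020, and their quartiles lay at -0.14 and 0.18.

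As a family the carriers lay close to the rest of the genome, and a few members stood out on either side. SLC25A36, an importer of pyrimidine nucleotides, was 2.53-fold lower in shKDM4A cells, and SLC25A21, the oxoadipate carrier, was 2.22-fold lower. SLC25A27, a brain-type relative of the uncoupling proteins, was 1.86-fold higher, and SLC25A44, the branched-chain amino acid carrier, was 1.83-fold higher. Of 42 carriers, 27 lay above 0 (64.3%, against 53.7% of all genes) and the median was 0.10, with quartiles of -0.11 and 0.32. At 2-fold, 2 of 42 carriers were lower (4.76%, against 1.44% of all genes) and 0 of 42 were higher (against 1.16%). At 1.5-fold, 5 were higher (11.9%, against 4.3%) and 3 were lower (7.14%, against 4.38%). These counts are small and describe 2 arrays only.

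**Figure D1:**
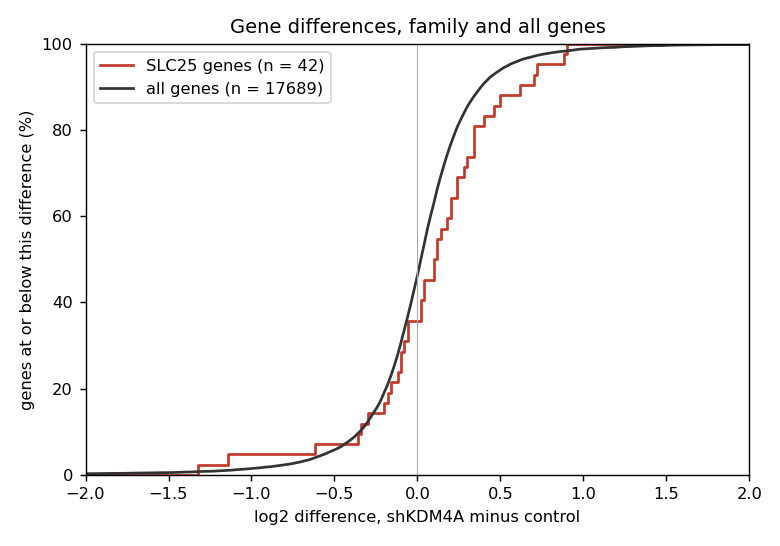
Cumulative share of genes (vertical axis, percent) at or below each log2 difference, shKDM4A minus control (horizontal axis), for 42 SLC25 genes (red steps) and all 17689 genes (black line). The red line lies to the right of the black one through the middle, with medians of 0.10 and 0.020, and has its 2 lowest steps at -1.34 and -1.15.

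Among all genes SLC25A36 was 128th from the lowest and SLC25A21 181st, while SLC25A27 was 295th and SLC25A44 304th from the highest. The pattern across the family rested on probe sets of uneven number, from 1 to 10 per gene. In 26 carriers more than 1 probe set was available, and in 16 of these every probe set lay on the same side of 0 (61.5%, against 50.3% of all such genes). The other 10 had probe sets on both sides, and 16 carriers had 1 probe set. Taken singly, 6 of the 88 probe sets were at least 2-fold lower (6.82%, against 2.39% of all probe sets with 1 gene) and 3 at least 2-fold higher (3.41%, against 1.48%). All 3 higher ones belonged to SLC25A27, and 3 of the 6 lower ones to SLC25A36. Probe sets of the same gene are not separate members, so these shares rest largely on those carriers. Pooled within genes, the SD over probe sets was 0.38 among carriers and 0.33 among all genes. Differences smaller than this are not distinguished from the spread between single probe sets. Larger ones could not be set against the spread between cultures, which was not measured.

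The 250 bases upstream of the gene start are shown for the 2 lowest and the 2 highest carriers, since these are the genes the result turns on. Sequences are from RefSeq, GRCh38.p14, written 5′ to 3′ on the gene's own strand. Capitals mark CCAAT boxes, GC boxes (GGGCGG) and, in SLC25A36, a cyclic AMP response element (TGACGTCA), each searched on both strands, with no overlap between different motifs here. SLC25A36 lies on the plus strand, with its window at chr3:140941586-140941835. SLC25A21 lies on the minus strand, at chr14:37172607-37172856, and its window falls inside the RefSeq gene SLC25A21-AS1. SLC25A27 and SLC25A44 lie on the plus strand, at chr6:46652725-46652974 and chr1:156193854-156194103.
SLC25A36: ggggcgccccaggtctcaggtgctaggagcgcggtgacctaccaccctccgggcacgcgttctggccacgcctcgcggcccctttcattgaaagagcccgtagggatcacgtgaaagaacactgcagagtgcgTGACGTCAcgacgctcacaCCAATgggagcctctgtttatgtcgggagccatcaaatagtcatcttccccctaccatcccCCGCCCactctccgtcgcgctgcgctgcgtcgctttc
SLC25A21: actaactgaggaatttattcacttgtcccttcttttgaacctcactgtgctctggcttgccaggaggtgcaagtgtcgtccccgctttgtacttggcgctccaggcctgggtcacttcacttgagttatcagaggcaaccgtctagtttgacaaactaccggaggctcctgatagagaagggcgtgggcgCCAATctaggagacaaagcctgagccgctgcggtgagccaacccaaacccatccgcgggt
SLC25A27: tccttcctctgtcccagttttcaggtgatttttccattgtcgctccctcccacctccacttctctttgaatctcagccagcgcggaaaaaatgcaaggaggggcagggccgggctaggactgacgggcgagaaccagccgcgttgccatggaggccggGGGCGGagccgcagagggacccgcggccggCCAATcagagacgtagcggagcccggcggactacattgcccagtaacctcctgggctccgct
SLC25A44: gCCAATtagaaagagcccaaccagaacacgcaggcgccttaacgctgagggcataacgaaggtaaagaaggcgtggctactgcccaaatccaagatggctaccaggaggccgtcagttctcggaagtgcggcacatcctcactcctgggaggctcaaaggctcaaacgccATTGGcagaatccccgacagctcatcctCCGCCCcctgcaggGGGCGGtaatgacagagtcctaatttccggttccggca

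A CCAAT box was present in all 4 windows, 98 to 94 bases before the start in SLC25A36, 60 to 56 in SLC25A21, 62 to 58 in SLC25A27 and at 249 to 245 and 80 to 76 in SLC25A44. These genes lie on both sides of 0. Promoters were matched for 35 of 42 carriers; the GC content of their windows had a median of 66%, against 58% over all 35116 promoters. CCAAT was found in 16 of the 35 (45.7%, against 32.0% of all promoters), GGGCGG in 24 (68.6%, against 42.6%) and the ETS letters CCGGAAG in 8 (22.9%, against 8.52%). The response element TGACGTCA stood in 3 of the 35 windows (8.57%, against 1.65%). Those were SLC25A36, its paralog SLC25A33 and SLC25A25, whose differences were -1.34, 0.34 and 0.34. The NRF1 motif, known from promoters of respiratory genes, stood in 2 (5.71%, against 5.07%), SLC25A3 and SLC25A11. TATAAA was in 3 (8.57%, against 10.7%), TTTCGCGC in 1 (2.86%, against 0.439%), and neither TTTGGCGC nor TGATGCAA in any (against 0.550% and 0.772%). The 35116 promoters were not limited to genes measured here and not matched to the carriers for GC content. A match is a description of the letters and says nothing of binding.

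**Figure D2:**
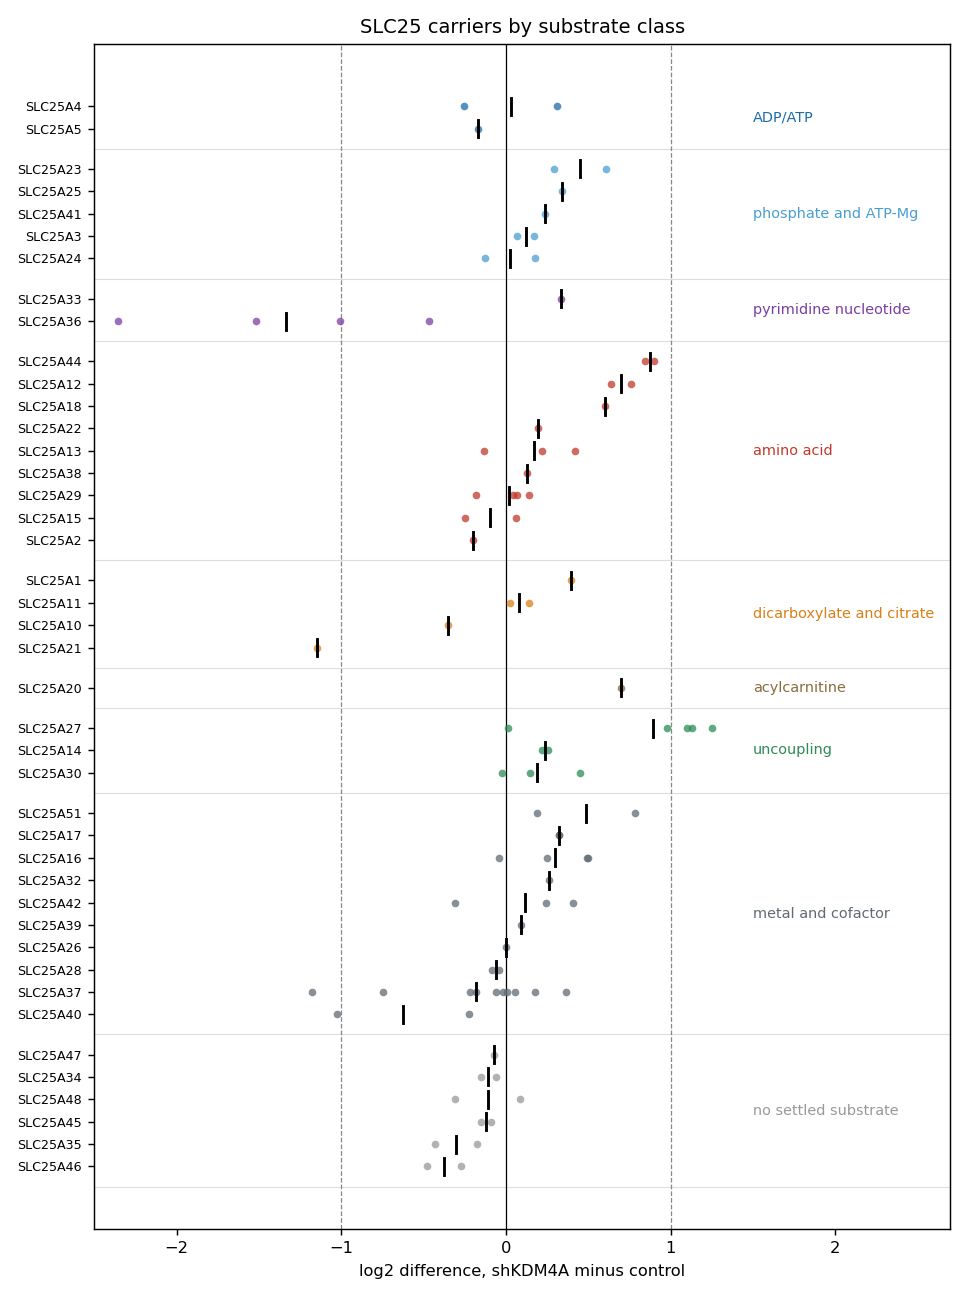
Log2 difference, shKDM4A minus control (horizontal axis), for each of the 88 probe sets (points) of 42 SLC25 genes (rows, grouped and coloured by substrate class), with the gene mean as a black bar and dashed lines at 2-fold. All 4 points of SLC25A36 lie below 0, from -2.36 to -0.47, and 4 of the 5 points of SLC25A27 lie between 0.98 and 1.25.

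Pyrimidine nucleotide carriers went apart. SLC25A36 and SLC25A33 both exchange pyrimidine nucleotides, which mitochondria need for their own DNA and RNA. On the shKDM4A array the probe sets of SLC25A36 read -1.18, -0.76, -0.50 and -0.23, against 1.18, 0.76, 0.50 and 0.23 on the control array. All 4 were lower in the knockdown, 3 of them by at least 2-fold, giving a gene value of -1.34 ± 0.80 (SD, 4 probe sets). The size was uneven: the probe sets differed by -2.36, -1.52, -1.01 and -0.47. The single probe set of SLC25A33 read 0.17 on the shKDM4A array and -0.17 on the control array, a difference of 0.34. SLC25A36 minus SLC25A33 came to -1.67 on the log2 scale, and no probe set of SLC25A36 reached that of SLC25A33.

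**Figure D3:**
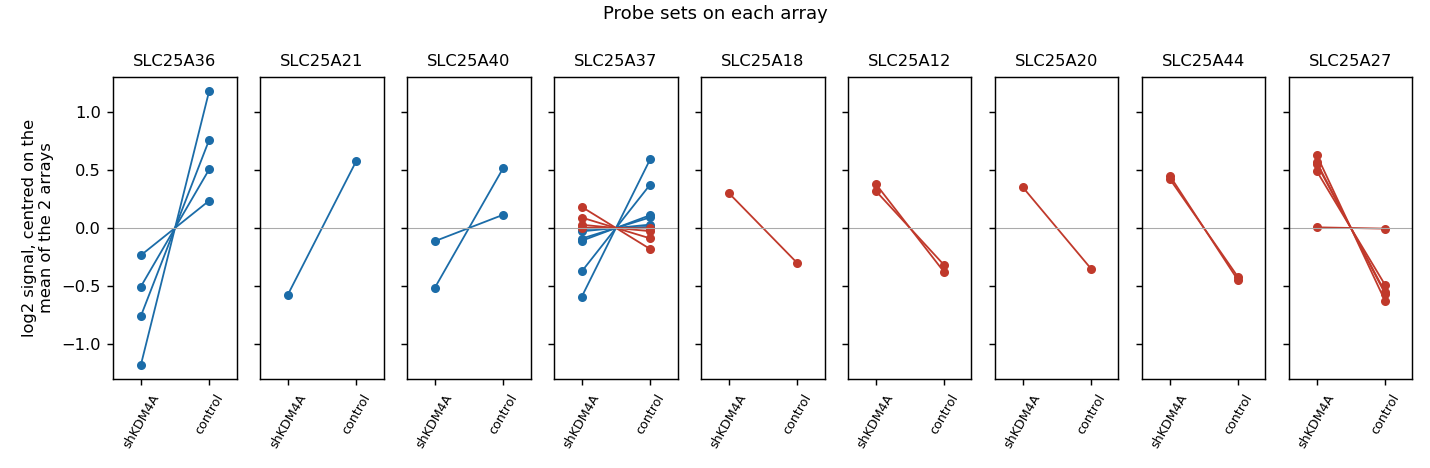
Values of each probe set (points joined by a line) on the shKDM4A array (left) and the control array (right) for the 9 carriers at least 1.5-fold apart or with a probe set at least 2-fold apart. The vertical axis is log2 signal centred on the mean of the 2 arrays, so each line crosses 0; blue lines are lower in shKDM4A and red lines higher.

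Among dicarboxylate and citrate carriers SLC25A21 stood apart. It imports oxoadipate, an intermediate of lysine and tryptophan breakdown, and its only probe set read -0.57 on the shKDM4A array and 0.57 on the control array (-1.15). That value has no second probe set behind it. The antisense gene SLC25A21-AS1, which RefSeq places across the start of SLC25A21, lay at -0.36 (1 probe set). SLC25A1, which exports citrate for lipid synthesis in the cytosol, lay at 0.40 (1 probe set). SLC25A11, the oxoglutarate carrier of the malate-aspartate shuttle, lay at 0.082 ± 0.082 (SD, 2 probe sets). SLC25A10, which exchanges malate and succinate for phosphate, lay at -0.35 (1 probe set). The class median was -0.13 over 4 genes, with 2 on each side of 0.

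Of 9 amino acid carriers, 3 were at least 1.5-fold higher (against 4.3% of all genes) and 0 at least 1.5-fold lower (against 4.38%). SLC25A44, which brings branched-chain amino acids into mitochondria, read 0.45 and 0.42 on the shKDM4A array, against -0.45 and -0.42 on the control array. Its value of 0.87 ± 0.039 (SD, 2 probe sets) was close in both probe sets. SLC25A12, the aspartate/glutamate carrier of the malate-aspartate shuttle in muscle and brain, read 0.38 and 0.32 in shKDM4A cells, against -0.38 and -0.32 in control cells. It lay at 0.70 ± 0.085 (SD, 2 probe sets), 1.62-fold higher. SLC25A13, known as citrin and the main liver form of the same carrier, lay at 0.17 ± 0.28 (SD, 3 probe sets) with probe sets on both sides of 0, all below those of SLC25A12.

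The glutamate carriers lay at 0.60 for SLC25A18, 1.52-fold higher, and at 0.20 for SLC25A22, each with 1 probe set. SLC25A18 read 0.30 on the shKDM4A array and -0.30 on the control array. SLC25A38, which supplies glycine for heme synthesis, lay at 0.13 (1 probe set). SLC25A15, the ornithine carrier of the urea cycle, lay at -0.094 ± 0.22 (SD, 2 probe sets) and its relative SLC25A2 at -0.20 (1 probe set). SLC25A29, a carrier of basic amino acids, lay at 0.017 ± 0.14 (SD, 4 probe sets). Its probe sets at -0.18 and 0.069 have the same source sequence in the platform annotation, so they are not independent. The class median was 0.17, with 7 of 9 genes above 0 (77.8%, against 53.7% of all genes).

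SLC25A20 exchanges acylcarnitine for carnitine and so admits fatty acids for oxidation. Its single probe set read 0.35 on the shKDM4A array and -0.35 on the control array, a difference of 0.70 or 1.63-fold. The 4 listed carnitine enzymes with a value lay above 0, as did 53.7% of all genes. CPT1A, the acyltransferase of the outer membrane, lay at 0.30 ± 0.19 (SD, 4 probe sets) and CPT2, its inner membrane partner, at 0.29 ± 0.044 (SD, 2 probe sets). CRAT, which makes acetylcarnitine, lay at 0.19 ± 0.0024 (SD, 2 probe sets). CPT1C, the brain form, lay at 1.05 (1 probe set), the only one of these 4 past 2-fold (25%, against 1.16% of all genes higher).

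All 3 uncoupling-type carriers lay above 0, as did 53.7% of all genes. SLC25A27, also called UCP4, is best known from neurons. Its 5 probe sets read 0.63, 0.56, 0.55, 0.49 and 0.0056 on the shKDM4A array, against -0.63, -0.56, -0.55, -0.49 and -0.0056 on the control array. The differences were thus 1.25, 1.13, 1.10, 0.98 and 0.011. 4 probe sets stood together and 1 lay at 0, so the mean of 0.89 ± 0.50 (SD, 5 probe sets) falls short of 2-fold while the median of 1.10 passes it. SLC25A14, or UCP5, lay at 0.24 ± 0.029 (SD, 2 probe sets). SLC25A30, a kidney carrier of the same branch, lay at 0.19 ± 0.24 (SD, 3 probe sets). The classic uncoupling proteins lie outside the symbol rule and were near 0: UCP1 of brown fat at -0.15 (1 probe set), UCP2 at -0.12 ± 0.10 and UCP3 at 0.078 ± 0.083 (SD, 2 probe sets each).

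Of 4 ADP/ATP carriers listed, 2 had a value, and these lay close to 0. SLC25A4, the muscle form, lay at 0.029 ± 0.40 (SD, 2 probe sets), with probe sets at 0.31 and -0.25. SLC25A5, the form of proliferating cells, lay at -0.17 (1 probe set), and its antisense gene SLC25A5-AS1 at 0.039 ± 0.015 (SD, 2 probe sets). SLC25A3, which imports phosphate for ATP synthesis, lay at 0.12 ± 0.075 (SD, 2 probe sets). The calcium-regulated carriers of ATP-Mg and phosphate adjust the nucleotide content of the matrix. All 4 lay above 0, as did 53.7% of all genes. SLC25A23 lay at 0.45 ± 0.22 and SLC25A24 at 0.024 ± 0.21 (SD, 2 probe sets each), without overlap between their probe sets. Those of SLC25A24 lay on both sides of 0, at 0.17 and -0.13. SLC25A25 lay at 0.34 and SLC25A41 at 0.24, each with 1 probe set. The RNA named SLC25A25-AS1 was 1.90-fold higher (0.92, 1 probe set).

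Iron and cofactor carriers had a median of 0.10 over 10 genes. At 1.5-fold, 1 of them was lower (10%, against 4.38% of all genes) and 0 were higher (against 4.3%). SLC25A40, a glutathione importer, was 1.55-fold lower at -0.63 ± 0.57 (SD, 2 probe sets). It read -0.51 and -0.11 on the shKDM4A array, against 0.51 and 0.11 on the control array. Both probe sets were lower, by unequal amounts (-1.03 and -0.23). Its closest relative SLC25A39, the main glutathione importer, lay at 0.093 (1 probe set).

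The mitoferrins bring iron to the matrix for heme and iron-sulfur clusters. SLC25A37, mitoferrin of erythroid cells, lay at -0.18 ± 0.46 (SD, 10 probe sets), and SLC25A28, the general form, at -0.063 ± 0.030 (SD, 2 probe sets). The 10 probe sets of SLC25A37 did not read alike. On the shKDM4A array the lowest probe sets read -0.59 and -0.37, against 0.59 and 0.37 on the control array, giving differences of -1.18 and -0.75. The platform annotation gives both the same source sequence, so they are not independent. The other 8 probe sets ran from -0.22 to 0.36, with a mean of 0.016. SLC25A37 as a whole therefore had no settled direction.

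The remaining cofactor carriers lay between 0 and 0.49. SLC25A51, the importer of NAD, lay at 0.49 ± 0.42 (SD, 2 probe sets). SLC25A17, which moves cofactors across the peroxisomal membrane, lay at 0.32 ± 0.00048 (SD, 2 probe sets). SLC25A16, linked to coenzyme A, lay at 0.30 ± 0.26 (SD, 4 probe sets) and SLC25A42, a coenzyme A carrier, at 0.11 ± 0.38 (SD, 3 probe sets). SLC25A32, which carries folate and FAD, lay at 0.26 and SLC25A26, the importer of S-adenosylmethionine, at 8.02e-05, each with 1 probe set.

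Of 8 family members grouped here as having no settled substrate 6 had a value, and these 6 lay below 0, as did 46.3% of all genes. Their median was -0.12. SLC25A46, an outer membrane protein of mitochondrial dynamics, lay at -0.38 ± 0.15, SLC25A35 at -0.30 ± 0.18, SLC25A45 at -0.12 ± 0.046, SLC25A48 at -0.11 ± 0.28 and SLC25A34 at -0.11 ± 0.066 (SD, 2 probe sets each). The probe sets of SLC25A48 lay on both sides of 0, at -0.31 and 0.088. SLC25A47, a liver carrier, lay at -0.073 (1 probe set) and SLC25A48-AS1 at -0.11 (1 probe set). At least 1.5-fold lower were 0 of the 6, against 4.38% of all genes.

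**Figure D4:**
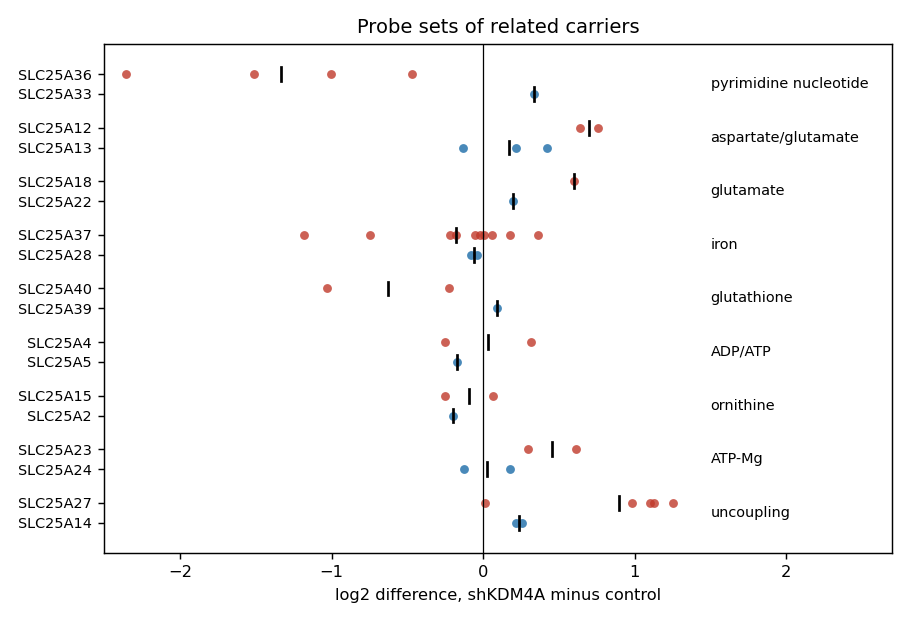
Probe set differences (points; horizontal axis, log2, shKDM4A minus control) for 9 pairs of related carriers that share a substrate or branch, with the upper gene of each pair in red, the lower in blue and the gene mean as a black bar. The probe sets of SLC25A36 and SLC25A33 lie on opposite sides of 0, and those of SLC25A12 lie above those of SLC25A13.

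Of 11 pairs of relatives compared, 5 had probe sets that did not overlap, and 3 of these 5 included a gene with 1 probe set. Probe sets of the other pairs overlapped, among them SLC25A23 with SLC25A25, and SLC25A27 with both SLC25A14 and SLC25A30. With so few probe sets a gene, separation between the probe sets of relatives comes easily, and it was not tested. SLC25A18 and SLC25A22 had 1 probe set each, so theirs could not overlap. SLC25A14 with SLC25A30, and SLC25A24 with SLC25A25, were not compared. No share of separated pairs over all genes was calculated, so the count has no background.

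The genes that work with the carriers were read the same way. The listed import machinery, of the outer as well as the inner membrane, had a median of 0.069 over 14 genes. TOMM20, a receptor of the outer membrane, was its only member 1.5-fold apart, at -0.61 ± 0.29 (SD, 2 probe sets). That put 7.14% of the list lower, against 4.38% of all genes, and 0 higher, against 4.3%. TIMM22, the pore that inserts carriers, lay at 0.27 ± 0.11 (SD, 3 probe sets), and the small chaperones TIMM10 and TIMM8B lay at -0.30 ± 0.057 and 0.28 ± 0.11 (SD, 2 probe sets each). Family members with other symbols, MTCH1 and MTCH2, which act at the outer membrane, lay at 0.50 (1 probe set) and 0.39 ± 0.16 (SD, 2 probe sets).

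Enzymes of the malate-aspartate and citrate shuttles had 8 of 9 genes above 0 (88.9%, against 53.7% of all genes) and a median of 0.21. MDH2, the mitochondrial malate dehydrogenase, lay at 0.68 ± 0.64 (SD, 2 probe sets) and GOT2, the mitochondrial aspartate transaminase, at 0.57 (1 probe set). ACLY, which splits exported citrate, lay at 0.49 ± 0.083 (SD, 3 probe sets), beside its supplier SLC25A1 at 0.40. MDH1, the cytosolic malate dehydrogenase, lay at 0.35 (1 probe set). At 2-fold, 0 of the 9 genes were higher or lower, against 1.16% and 1.44% of all genes.

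The list of ornithine and glutamate enzymes also held GCSH and SHMT2, of glycine and serine metabolism. Of the 9 genes of this list with a value, 8 lay below 0 (against 46.3% of all genes) and its median was -0.31. Its difference from the amino acid carriers was not tested. The member above 0 was GLUD1, the mitochondrial glutamate dehydrogenase, at 0.31 ± 0.050 (SD, 2 probe sets). ODC1, which makes putrescine from ornithine, lay at -0.77 (1 probe set), and SHMT2, the mitochondrial serine hydroxymethyltransferase, at -0.69 ± 0.31 (SD, 3 probe sets). BCAT2, which transaminates the branched-chain amino acids that SLC25A44 imports, lay at -0.63 ± 0.79 (SD, 2 probe sets), with probe sets at -1.18 and -0.070. PYCR1, of proline synthesis, lay at -0.52 (1 probe set).

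Enzymes of iron-sulfur and heme synthesis had a median of 0.12 over 11 genes that lay on both sides. CPOX, the coproporphyrinogen oxidase, lay at -1.11 (1 probe set), the only one of the 11 past 2-fold. That put 9.09% of the list lower, against 1.44% of all genes, and 0 higher, against 1.16%. At 1.5-fold, 2 were higher (18.2%, against 4.3%) and 1 lower (9.09%, against 4.38%). ALAS1, the first enzyme of heme synthesis, lay at 0.93 (1 probe set). The ferredoxins FDX1 and FDX2 lay at 0.60 ± 0.15 (SD, 3 probe sets) and 0.58 (1 probe set). Other pores and carriers of mitochondria had a median of 0.13 over 15 genes. The pyruvate carrier subunits lay apart, MPC2 at 0.66 ± 0.11 and MPC1 at -0.51 ± 0.68 (SD, 2 probe sets each). ABCB10 lay at 0.57 (1 probe set) and the outer membrane channel VDAC1 at 0.54 ± 0.076 (SD, 3 probe sets).

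**Figure D5:**
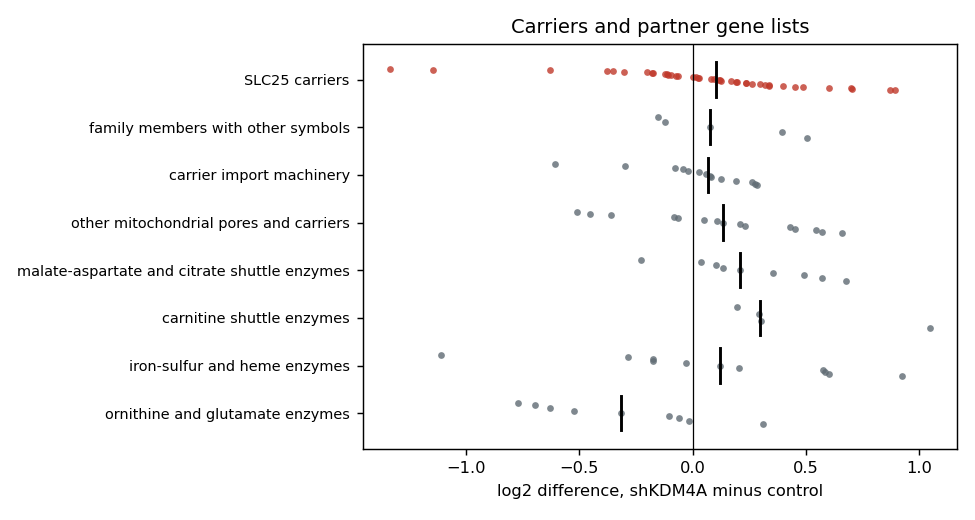
Gene differences (points; horizontal axis, log2, shKDM4A minus control) for the 42 SLC25 carriers (red, top row) and 7 other lists of genes (grey), with each list's median as a black bar. The list of ornithine and glutamate enzymes, which also holds GCSH and SHMT2, is centred below 0, at -0.31. The carnitine enzymes are centred above 0, at 0.30.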

How the data were processed

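RNA of 1 shKDM4A and 1 control culture of LNCaP cells was hybridised to Affymetrix U133 Plus 2.0 arrays. The authors deposited values on a log scale, read here as log2. RMA is named, without a version, per the submitters' processing notes. In every row the 2 arrays' values summed to 0 within 1e-06, so the deposited values are centred on the mean of both arrays. No source states how values were centred, whether probe sets were filtered, or the log base. Base 2, the usual one of RMA, was assumed for every fold. Probe sets were named through the platform annotation, and 34839 of 34880 probe sets with 1 gene matched RefSeq (GRCh38.p14) by Entrez identifier, with 0 symbols changed. A difference is shKDM4A minus control, and a gene's value is the mean over its probe sets. The 42 AFFX control probe sets were left out of gene values. With 1 array per group the number of arrays limits the precision, no test was run, and genes were called by size.

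The members, substrate classes and lists were chosen with earlier results of these data known. By rule every carrier with a value is named, array values are given for carriers at least 1.5-fold apart or with a probe set at least 2-fold apart, and up to 4 members farthest from 0 are named per other list. Other genes named were chosen after their values were seen. Alternatives were the median over probe sets, no _s_at or _x_at probe sets (which can match several transcripts), subtraction of the median of all probe sets, list means and rules of 1.5-fold and 3-fold. Genes with 2 or more probe sets alone were an alternative chosen after seeing the data. The calculation was tested on simulated data. Promoter windows came from RefSeq. The tools were numpy 2.4.6, pandas 2.3.3 and matplotlib 3.10.9 under Python 3.11.15.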

Additional observations from a re-analysis of the deposited data

How the results depend on the processing

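No paired analysis was possible because each group had 1 array, and no replicate could be left out. The count of 2 carriers past 2-fold was 8 under the 1.5-fold rule (5 higher, 3 lower), 0 under the 3-fold rule, and 1 among the 26 carriers with 2 or more probe sets, where SLC25A21 drops out. With the median over probe sets it was 3, since SLC25A27 passed 2-fold. The family median of 0.10 ran from 0.056 (genes with 2 or more probe sets) to 0.11 (without _s_at and _x_at probe sets) over the alternatives, and the family mean was 0.072. The dicarboxylate and citrate median was -0.35 without _s_at and _x_at probe sets (3 genes) and 0.082 in the only gene with 2 or more probe sets. Other class values differed from the main median by more than 1.5 times or in sign, as follows. List means did so for amino acid (0.27), dicarboxylate and citrate (-0.25) and no settled substrate (-0.18). The metal and cofactor median was 0.058 without _s_at and _x_at probe sets and 0.17 with the median over probe sets. Once genes with a single probe set were dropped, the phosphate and ATP-Mg median was 0.12 and that of ADP/ATP 0.029 (main value -0.072). The pyrimidine nucleotide value was -1.34 with SLC25A36 alone, and the mean of the uncoupling class was 0.44 against a median of 0.24. Single carriers changed sign in 2 cases without _s_at and _x_at probe sets, SLC25A15 and SLC25A29, and in 1 case, SLC25A26, after subtracting the median of all probe sets (0.014). No value could be given for the acylcarnitine class, SLC25A18 or SLC25A21 among genes with 2 or more probe sets. Because centring removed the signal levels, dim probe sets could not be told from bright ones.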
